A study of Mus musculus with 50 samples.

Results

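Glucocorticoid receptor (GR) binding was compared in the sets of light-reared astrocytes of the study whose receptor was intact. One set, NR, came from C57BL/6 (WT) mice (3 libraries). The other, GR-con, came from GR fl/fl mice, whose Nr3c1 gene is flanked by loxP sites (2 libraries). Both were injected on postnatal day (P) 0 to 1 with an adeno-associated virus in which the GfaABC1D promoter, active in astrocytes, drives a catalytically inactive Cre (ΔCre) and a GFP at the nuclear membrane. The sets shared the virus, the normal light cycle and the age of P14, and differed in the floxed allele. They also differed in experiment, as the paper describes the mapping in floxed mice as a repeat made to check the first sites. Allele and experiment cannot be told apart here. Each library was a pool of primary visual cortex (V1) from 3 to 5 mice, from which 175000 GFP-positive nuclei were sorted, so only cells that took up the virus and used the promoter were sampled. GR was mapped by CUT&RUN, which uses an antibody to bring a nuclease to the bound protein and frees the short stretches of DNA around it, and gave 1 list of peaks per library. Peaks that overlapped by at least 1 bp were merged, and a merged region with a peak in 2 or more libraries of a set was a site of that set. The 12458 NR sites and 3945 GR-con sites formed 12742 loci on mm10. Of these, 3621 loci were common to the sets, 8831 were NR only and 290 were GR-con only. The series holds 50 samples, of which 39 have a peak list.

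GR is a nuclear receptor that stays in the cytoplasm with Hsp90 and immunophilin chaperones until cortisol or corticosterone binds it. It then enters the nucleus and binds DNA as a dimer at the glucocorticoid response element (GRE), a palindrome of a pair of half-sites 3 bases apart, or meets chromatin through other proteins. In the brain it is known for the hormone's feedback on stress responses and for circadian and metabolic genes of glia. NFIA is a nuclear factor I protein needed for the making of astrocytes, and it binds TTGGC half-sites.

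The loci with a full GRE (GNACANNNTGTNC, a pattern that reads alike on each strand) within 50 bp of a summit are a small part of each class, 1.33% of common, 0.510% of NR-only and 1.38% of GR-con-only loci, and some are printed to show the receptor's own motif at called peaks. Those printed are the best-ranked loci of their class with this motif outside exons. For common loci these were Per1 (chr11:69097010-69097110), Lgi1 (chr19:38260521-38260621) and Nrxn2 (chr19:6452012-6452112). For NR-only loci they were Camta1 (chr4:151396761-151396861), Trit1 (chr4:123046505-123046605) and Prkar2a (chr9:108754525-108754625). Of the 4 GR-con-only loci with a full GRE 2 qualified, Dab1 (chr4:103522152-103522252) and Gabrb1 (chr5:71722971-71723071). Capitals mark the GRE and sequences are from the plus strand of mm10.
Per1: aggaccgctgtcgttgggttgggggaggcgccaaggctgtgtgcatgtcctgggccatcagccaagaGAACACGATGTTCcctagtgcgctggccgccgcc
Lgi1: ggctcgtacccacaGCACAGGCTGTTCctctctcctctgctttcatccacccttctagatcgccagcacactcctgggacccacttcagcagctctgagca
Nrxn2: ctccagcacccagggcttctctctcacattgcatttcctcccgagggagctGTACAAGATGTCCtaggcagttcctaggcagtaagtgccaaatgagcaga
Camta1: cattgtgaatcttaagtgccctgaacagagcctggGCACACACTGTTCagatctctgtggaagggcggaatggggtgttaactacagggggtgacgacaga
Trit1: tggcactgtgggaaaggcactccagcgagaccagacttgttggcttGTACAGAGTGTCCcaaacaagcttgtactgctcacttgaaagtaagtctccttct
Prkar2a: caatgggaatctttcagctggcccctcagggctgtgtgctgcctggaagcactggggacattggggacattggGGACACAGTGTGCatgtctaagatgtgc
Dab1: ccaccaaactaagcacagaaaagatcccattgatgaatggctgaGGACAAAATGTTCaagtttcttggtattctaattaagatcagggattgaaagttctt
Gabrb1: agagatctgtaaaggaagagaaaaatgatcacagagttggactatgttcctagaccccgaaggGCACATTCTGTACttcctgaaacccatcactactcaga
The centre of the GRE lay 23, 30 and 7 bp from the summit at Per1, Lgi1 and Nrxn2, 9, 2 and 29 bp at Camta1, Trit1 and Prkar2a, and 0 and 19 bp at Dab1 and Gabrb1. None of these 8 loci had a peak in GR-KO astrocytes, from GR fl/fl mice given the same virus with an active Cre. Most loci had none either, at 67.8% of common, 95.45% of NR-only and 80.0% of GR-con-only loci. Of loci with a full GRE, 85.4%, 97.8% and 100% had none.

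At the Per1 locus, in an intron of this clock gene that glucocorticoids induce, the fold enrichment over background was 15.5, 7.55 and 26.4 in NR replicates 1, 2 and 3 and 16.2 and 17.97 in GR-con replicates 1 and 2. It rested on 50, 17, 68, 41 and 44 fragments over the summit in the same order. NR replicate 2 was the lowest, and the GR-con values fell inside the range of NR. At Lgi1, whose product is a secreted synaptic protein, the fold was 14.7, 9.81 and 12.04 in NR and 16.2 and 16.3 in GR-con. Nrxn2, a neurexin gene, had 26.1, 6.71 and 21.9 in NR and 14.1 and 13.8 in GR-con. The NR-only locus at Camta1 had a peak in NR replicates 1 and 3 alone, with folds of 12.7 and 11.97. Trit1 had 10.0 and 8.96 in the same libraries, and also a peak of 9.45 in GR-con replicate 1, which 1 library alone cannot make a GR-con site. The GR-con-only locus upstream of Dab1 had folds of 14.01 and 11.1, and NR replicate 1 held a peak of 5.73 there. A locus of one set only is thus one where no merged region had peaks from 2 libraries of the other set, though a single library could have one.

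The lists differed in length more within the NR set than between sets. NR replicates 1, 2 and 3 held 14012, 2262 and 21539 peaks (12604 ± 9715, SD, n = 3) and GR-con replicates 1 and 2 held 7761 and 6792 (7276 ± 685, SD, n = 2). NR replicate 2 lay below both GR-con libraries and the other NR libraries lay above them. The difference between sets was 0.28 on the log2 scale, a ratio of 1.21 (two-sided exact permutation test, p = 1). With 3 libraries against 2 there are 10 labellings and no such test can give less than 0.1. The lowest local background behind the peaks, a rough guide to depth since total depth is unknown, was 0.224, 0.126 and 0.220 fragments per position in NR and 0.224 and 0.211 in GR-con, so the shortest of these 5 lists came with the lowest background. GR-KO had 1846 and 413 peaks, with backgrounds of 0.279 and 0.0718, and dark-reared (DR) WT astrocytes had 69, 28 and 293 peaks, with backgrounds of 0.202, 0.256 and 0.126, so among DR libraries the longest list had the lowest background.

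To set libraries of unequal length side by side, the 2262 best-ranked peaks of each were overlapped and the shared share taken of all regions in the pair. Within NR this was 17.8% for replicates 1 and 2, 35.9% for 1 and 3 and 17.1% for 2 and 3, and for the GR-con pair 24.7%. Between sets it ran from 19.3% (NR replicate 3 with GR-con replicate 1) to 29.6% (NR replicate 1 with GR-con replicate 2). The mean was 23.9% within sets and 24.3% between them, a difference of -0.38 percentage points (one-sided exact permutation test for a higher overlap within sets, p = 0.4). NR replicate 2 overlapped its own set by 17.8% and 17.1% and GR-con by 23.8% and 22.9%. Without it, with the 6792 best-ranked peaks of each library, overlap within sets was higher than between them by 6.68 percentage points. The one-sided exact permutation p over these 4 libraries was 0.3333, the smallest that 2 libraries against 2 allow. Without GR-con replicate 2, overlap within sets was higher by 2.22 percentage points. With whole lists, 93.9% of the peaks of GR-con replicate 2, 81.9% of those of GR-con replicate 1 and 92.6% of those of NR replicate 2 overlapped a peak of NR replicate 3, whereas 51.5% and 58.4% of the peaks of the GR-con libraries overlapped each other.

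**Figure D1:**
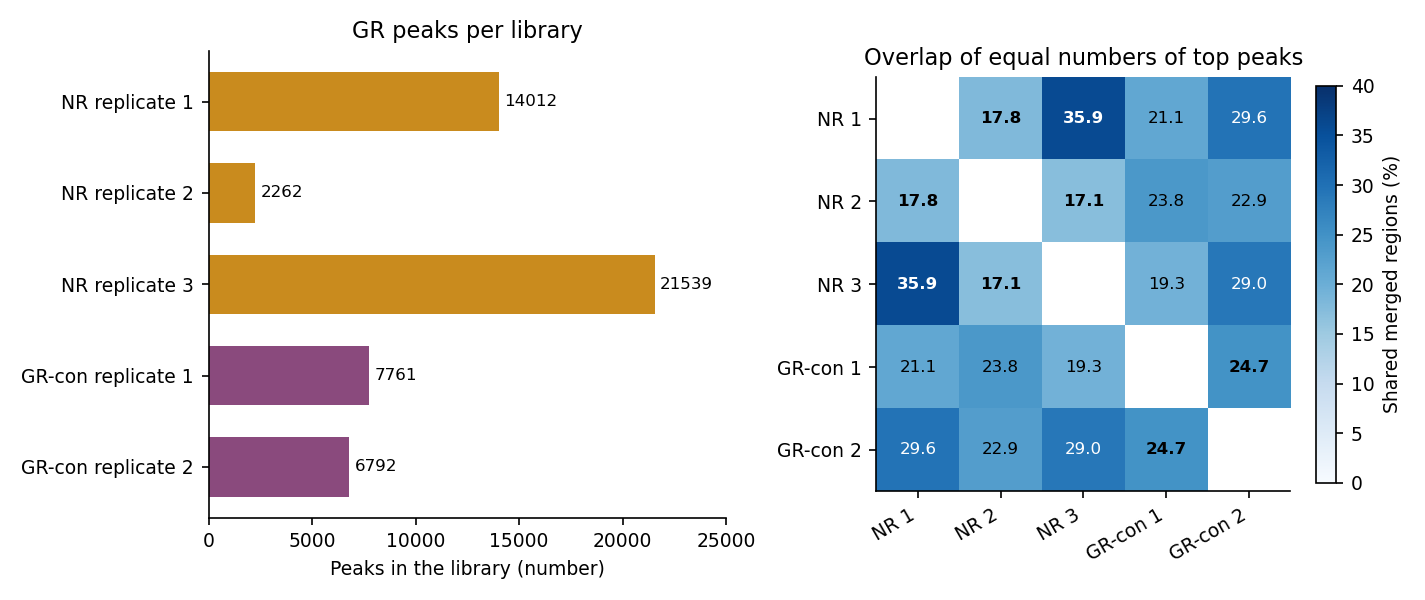
Left, number of peaks called in each NR and GR-con library; right, percent of regions shared by each pair of libraries among the 2262 best-ranked peaks of each. NR replicate 2 is the shortest list and shares least with its own set (17.1% and 17.8%), and pairs between sets lie within the range of pairs within sets.

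Nearly all GR-con loci were also NR loci, but not the reverse. The rule was unequal, as a site needed peaks in 2 of the 3 NR libraries but in both GR-con libraries. Of the GR-con loci 92.6% were common (Wilson 95% interval 91.7 to 93.4%, counting error only, here and below), against 29.1% of the NR loci (28.3 to 29.9%). This asymmetry rests on NR replicates 1 and 3, which held peaks at 98.4% and 99.8% of the common loci, while NR replicate 2 held one at 41.1%. With a peak required in every library of a set it was reversed, with 78.1% of NR loci and 36.3% of GR-con loci common. Without NR replicate 1 the counts were 1483 common, 560 NR only and 2446 GR-con only, and without NR replicate 3 they were 1428, 405 and 2505, and in the latter case 36.3% of GR-con loci and 77.9% of NR loci were common. Without GR-con replicate 1 or 2, leaving a single library to define the set, GR-con-only loci numbered 1113 or 2199. Without GR-con replicate 1, common loci numbered 5540.

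How many NR libraries called a locus went with whether GR-con had it. Of the 1825 NR loci with a peak in all 3 NR libraries, 78.1% were common (76.2 to 80.0%), and of the 10627 with a peak in 2, 20.7% (19.9 to 21.4%). Among the 8831 NR-only loci, 3651 (41.3%) had a peak in 1 GR-con library, 5143 (58.2%) in none and 37 in both at places that did not overlap. The NR-only loci with a peak in every NR library and no GR-con library numbered 70. Among the 290 GR-con-only loci, 214 had a peak in 1 NR library, 73 in none and 3 in 2 NR libraries without overlap. NR replicate 3, the longest list, held a peak at 171 of them, NR replicate 1 at 33 and NR replicate 2 at 16.

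Rank in the list went with it as well. When NR loci were split into 10 equal groups by their mean rank of fold enrichment in the NR libraries, 59.6% of the best group were common, against 14.8% of the last but one and 19.1% of the last. For GR-con loci the share was 99.0% in the best group and 93.4% in the last, and 89.0% at its lowest. Low-ranked GR-con loci were thus still mostly NR loci, and many high-ranked NR loci were not GR-con loci.

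**Figure D2:**
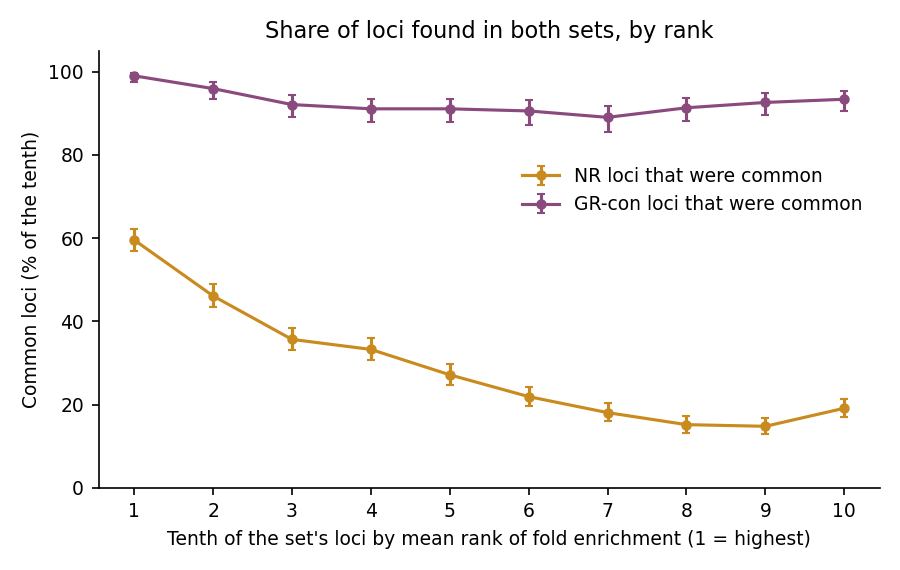
Percent of loci common to the sets in each of 10 equal groups by rank of fold enrichment, best group first, for NR loci and GR-con loci, with Wilson 95% bars. The NR share goes from 59.6% in the best group to 19.1% in the last, and the GR-con share stays between 89.0% and 99.0%.

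Common loci also carried more fragments at their summits in the libraries where they were called. The median was 26, 13 and 35 fragments in NR replicates 1, 2 and 3 and 19 and 18 in GR-con. At NR-only loci it was 16, 11 and 21 in NR, and at GR-con-only loci 11 and 10 in GR-con. These values come from the peaks that set the classes and are given as a description. At the 1426 loci called in all 5 libraries, the median fold was 8.90, 6.24 and 11.8 in NR and 7.32 and 6.89 in GR-con. Summits of the same locus lay a median of 28 to 41 bp apart in pairs of libraries within a set and 30 to 36 bp apart between sets. The order of fold enrichment at these loci had Spearman correlations of 0.335 to 0.692 within sets and 0.443 to 0.548 between them, across loci that are not independent and share background.

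The common loci with the best mean rank over all 5 libraries, each named by its nearest protein-coding start, were at Ntm, Mrpl45, Tmem161b, Fbxo2, Frmd8, Cttnbp2, Arg1, Csrp1, Fam184b and Sfxn5. Their folds ran from 10.3 to 42.0 and their summits held 14 to 143 fragments. Ntm, which encodes the cell adhesion protein neurotrimin, had the best mean rank, at an intron locus (chr9:29949119-29949470) with an NFI half-site. Its fold was 24.6, 17.0 and 29.7 in NR and 21.1 and 20.1 in GR-con, so the GR-con values lay between those of NR replicates 2 and 1. At the promoter of Sfxn5, a mitochondrial carrier gene (chr6:85320333-85320913), the fold was 24.2, 10.5 and 42.0 in NR and 10.9 and 16.6 in GR-con, on 70, 24, 143, 36 and 53 fragments. Csrp1, which encodes a LIM-domain protein, had 26.7, 10.3 and 23.7 in NR and 12.6 and 17.7 in GR-con at an intron locus (chr1:135739494-135739858). At an intron locus of Cttnbp2, whose product binds cortactin (chr6:18445778-18446062), the order was the other way, with 14.4, 13.1 and 21.7 in NR and 25.6 and 17.0 in GR-con.

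Many of these strong common loci were called in GR-KO astrocytes too. Of the 10, 9 had a peak in at least 1 GR-KO library, 3 of them in both (Ntm, Mrpl45 and Cttnbp2), 5 had a DR peak and all 10 had an NFIA peak in all 3 astrocyte NFIA libraries. Over all 1426 loci called in 5 libraries, 49.0% had a GR-KO peak, 148 had a DR peak and 96.6% had NFIA in all 3, so the NFIA count was near the share of these loci as a whole. Over all common loci the shares were 32.2%, 5.11% and 95.6%. Mrpl45, at the promoter of a mitochondrial ribosome gene (chr11:97315576-97315903), had its highest fold in NR replicate 2 (40.1, against 16.6 and 27.4 in NR and 16.9 and 23.0 in GR-con), and peaks in 2 GR-KO, 3 DR, 3 GR libraries of other V1 cell types and 3 libraries of dexamethasone-treated 3T3 fibroblasts. The locus named for Frmd8 (chr19:5845777-5846113), 286 bp from the start of the antisense RNA Frmd8os, was the 1 of the 10 with no GR-KO peak. Its fold was 14.1, 16.5 and 28.5 in NR and 14.6 and 13.97 in GR-con, and all 4 dexamethasone-treated 3T3 libraries and all 3 DR libraries had a peak there.

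The NR-only loci called in all 3 NR libraries and in no GR-con library had lower folds than the best common ones, in a description of the peaks that set the classes. The 10 with the best ranks were at Rpl11, Cyb5r4, Cbs, Daam2, Ppp1r21, Slc28a2, Map4k4, Copz1, Zbtb2 and Lpin1, with folds of 5.11 to 19.7 on 5 to 71 fragments. An intron locus of Daam2, a formin gene of the Wnt pathway known in glia (chr17:49531650-49532022), had folds of 12.9, 5.88 and 19.7. Just upstream of Cbs, the cystathionine β-synthase gene (chr17:31638337-31638475), they were 10.4, 6.33 and 17.0. Near Lpin1, the lipin gene of fat synthesis (chr12:16532509-16532814), they were 15.7, 5.11 and 18.4. At each of these NR replicate 2 was the lowest. Only the Ppp1r21 locus had a GR-KO peak, none had a DR, other-cell or 3T3 peak, and 9 had an NFIA peak in all 3 libraries. These counts were near the shares over all NR-only loci, of which 4.55% had a GR-KO peak, 0.442% a DR peak and 84.7% an NFIA peak in all 3 libraries.

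The GR-con-only loci with no NR peak lay mostly away from promoters. The 10 with the best ranks, among them those nearest to Lsamp, Fam216b, Txndc5, Kif11, Ccdc192, Diaph2, Aldoart1, Lcorl and Slc24a3, had folds of 6.54 to 12.2 on 7 to 21 fragments. An intron locus of Lsamp, which encodes a neuronal adhesion protein (chr16:40908216-40908320), led with folds of 9.77 and 9.87. Of the 10, 4 lay in introns and 6 between genes, 4 had a peak in 1 GR-KO library and 3 had an NFIA peak in all 3 libraries, against 20.0% and 44.5% of all GR-con-only loci. Over all 73 such loci 64.4% were intronic, 3 were promoters, 12 had an NFIA peak in all 3 libraries and 27 in none, while of the 70 strict NR-only loci 25 were promoters, 53 had an NFIA peak in all 3 libraries and 0 in none.

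One GR-con-only locus lay in the floxed gene itself. It was looked for after the values had been seen. The locus (chr18:39428289-39428423) is in an intron of Nr3c1, 191 bp from its nearest exon, with folds of 12.3 and 5.78 on 14 and 6 fragments in GR-con and no peak in any NR, GR-KO, DR or NFIA library. The virus was the same in NR, where no peak was called there, and the floxed allele was carried by GR-con and GR-KO. The source of this peak was not tested. At the promoter of Nr3c1 a pair of NR-only loci was called in NR replicates 1 and 3 and in GR-con replicate 2, with folds of 10.3, 9.52 and 7.41 at one (chr18:39489863-39490059) and 9.08, 9.40 and 6.68 at the other (chr18:39490632-39491116).

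The classes lay in different parts of the genome. Promoters (within 500 bp of an annotated transcription start) held 33.5% of common loci (32.0 to 35.1%), 50.8% of NR-only loci (49.8 to 51.9%) and 13.8% of GR-con-only loci (10.3 to 18.2%). Introns held 39.6%, 26.6% and 54.8%, and the space between genes 23.8%, 19.0% and 29.0%. The median distance to a start was 8038, 704 and 18510 bp, and the median GC content of the summit windows 54.5%, 60.4% and 47.5%. Chromosome X held 1.71%, 1.99% and 5.17%. Of NR loci at promoters 21.3% were common, against 35.7% of those elsewhere.

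By library, though, the promoter share did not separate the sets. It was 43.2%, 30.2% and 44.6% of peaks in NR (39.3% ± 7.93, SD, n = 3) and 25.6% and 42.2% in GR-con (33.9% ± 11.8, SD, n = 2). GR-con replicate 1 was the lowest and GR-con replicate 2 lay near NR replicates 1 and 3 (difference 5.39 percentage points, exact permutation p = 0.5). Without GR-con replicate 1 the difference was -2.91 (exact p = 1). The 12218 sites called in both NR replicates 1 and 3 show the same split. At promoters 31.2% of these had a peak in GR-con replicate 1 and 41.7% in GR-con replicate 2, and elsewhere 54.6% and 46.7%. NR replicate 2 had a peak at 10.6% of the promoter sites and 18.9% of the others.

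Common loci held more GR and NFI motifs than NR-only loci. The full GRE was in 1.33% of common summit windows (48 loci), 0.510% of NR-only windows (45 loci) and 1.38% of GR-con-only windows (4 loci), and in 0.152%, 0.164% and 0% of windows of the same width 1 kb to either side. The interval for GR-con-only loci, 0.538 to 3.49%, holds both other values. The looser GRE (ACANNNTGT, which contains the full one) was in 4.45%, 2.08% and 6.55%, against 2.83%, 2.63% and 3.45% in the flanks. The NFI half-site (TTGGCA, on both strands) was in 16.0%, 11.01% and 14.8%, against 5.10%, 5.11% and 5.17% in the flanks. The NFI full site (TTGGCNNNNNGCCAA) was in 0, 1 and 2 loci. Away from promoters the full GRE was in 1.83% of common and 0.921% of NR-only loci, and the NFI half-site in 21.02% and 17.6%.

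Motifs of promoters went the other way. The GC box (GGGCGG), bound by SP factors, was in 16.0% of common, 26.3% of NR-only and 7.59% of GR-con-only windows. NRF1 sites (GCGCNTGCGC) were in 1.91% and 5.03%, and in 0 of 290 GR-con-only windows, where the Wilson interval reaches 1.31%. ETS sites (CCGGAAGT) were in 0.856%, 2.38% and 0.690%, and CREB sites (TGACGTCA) in 0.525%, 1.47% and 0.690%. The CTCF core (CCANNAGNNGGC) was in 0.939%, 2.55% and 0.345%, and its NR-only share was higher away from promoters (3.45%, against 0.873% of common loci) than at them (1.67% against 1.07%). The LHX site (TAATTA) was in 3.73%, 1.77% and 10.7%, with 2.50%, 2.30% and 4.66% in the flanks. The E-box (CAGCTG) was in 7.79%, 7.64% and 5.86%, and AP-1 (TGANTCA) in 2.71%, 2.09% and 4.83%.

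The difference in promoter share between common and NR-only loci had the same direction in 8 of the 10 rank groups, that in the full GRE in 8 and that in the NFI half-site in 10. Over libraries no motif passed a test between the sets. The full GRE was in 0.671%, 0.928% and 0.543% of summit windows in NR and 1.44% and 0.883% in GR-con, so GR-con replicate 1 was the highest and GR-con replicate 2 lay inside the NR range (exact permutation p = 0.3). Values of NR and GR-con did not overlap for 1 of 12 motifs, the E-box (8.05%, 8.002% and 8.04% against 6.92% and 7.995%), with an exact p of 0.1, the smallest possible. Adjusted over the 12 motifs (Benjamini-Hochberg, exact permutation tests), it was 0.6. For the NFI half-site and the GC box the difference had the opposite sign without GR-con replicate 1 (0.08 in place of -1.41 and -2.10 in place of 3.37 percentage points).

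**Figure D3:**
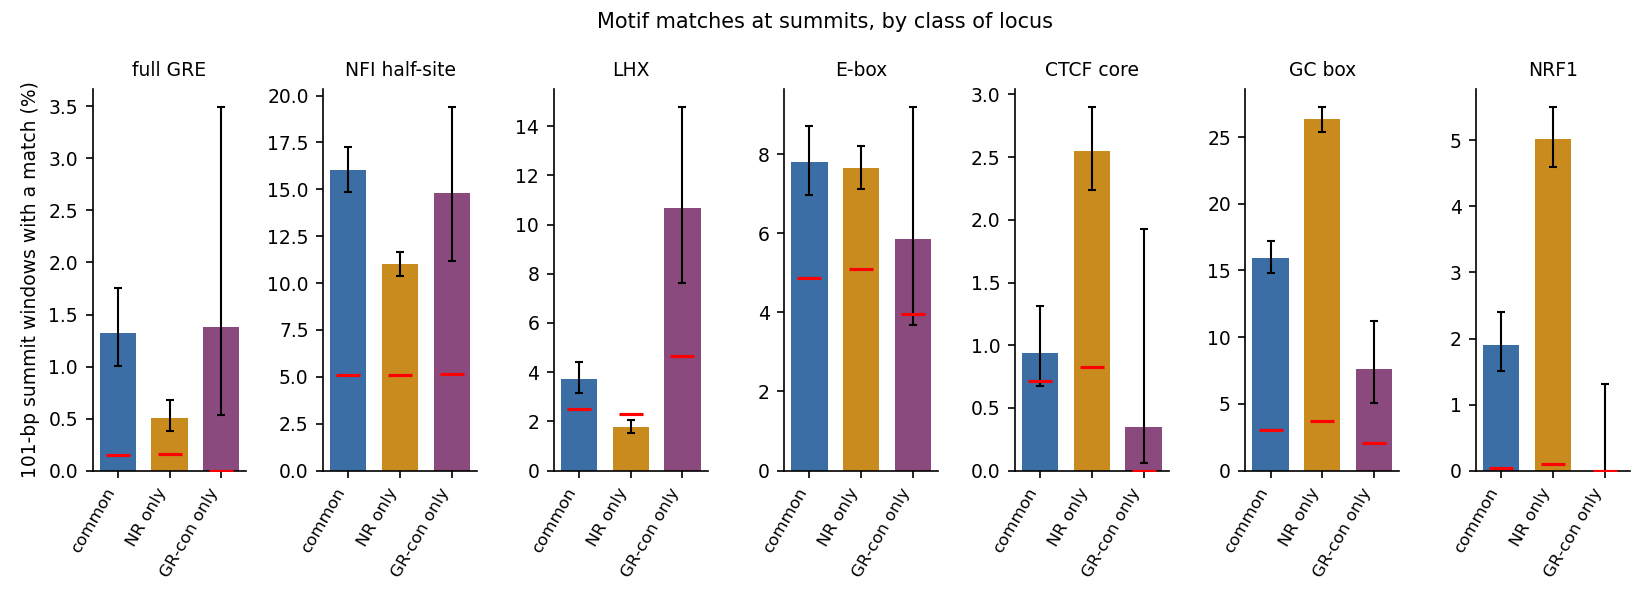
Percent of summit windows (50 bp to either side) holding each motif in common, NR-only and GR-con-only loci, with Wilson 95% bars; red dashes give the windows 1 kb away. The full GRE is at 1.33%, 0.510% and 1.38%, and the GC box at 16.0%, 26.3% and 7.59%.

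Libraries that had no part in making the classes were then asked which loci they called. GR-KO replicate 1 had a peak at 29.9% of common loci (28.4 to 31.4%), 4.04% of NR-only loci (3.65 to 4.47%) and 19.7% of GR-con-only loci (15.5 to 24.6%). For GR-KO replicate 2 the shares were 5.08%, 0.589% and 0.345%. Both libraries were higher at common than at NR-only loci, by 15.2 percentage points on average (exact permutation of signs, p = 0.5, the smallest that 2 libraries allow). The order of NR-only and GR-con-only loci differed between the GR-KO libraries. In each of the 10 groups of NR rank, GR-KO replicate 1 called more of the common loci (5.46 to 36.0%) than of the NR-only loci (1.49 to 6.15%). Read from the other side, 59.9% of its 1846 peaks lay in common loci, 19.5% in NR-only loci and 17.6% in none. Of the common loci 67.8% had no GR-KO peak. Common loci with a full GRE had none in 85.4% (41 of 48), against 67.6% of common loci without one. The source of the GR-KO peaks was not tested.

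Dark-reared astrocytes had few peaks, and most of them fell in common loci. DR replicates 1, 2 and 3 called 1.16%, 0.663% and 5.03% of common loci, 0.102%, 0.0227% and 0.430% of NR-only loci and 0%, 0.690% and 3.10% of GR-con-only loci. All 3 DR libraries were higher at common than at NR-only loci (exact permutation of signs, p = 0.25, the smallest possible). The difference between common and GR-con-only loci was 1.02 percentage points and was -0.98 without NR replicate 2. Of the peaks of DR replicate 3, 62.5% lay in common loci.

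NFIA peaks covered nearly all common loci. The 3 astrocyte NFIA libraries, from normally reared mice, had a peak at 98.4%, 98.3% and 96.8% of common, 93.6%, 93.0% and 90.5% of NR-only, and 68.3%, 66.9% and 59.3% of GR-con-only loci (common above NR only in all 3 libraries by 5.47 percentage points, and above GR-con only by 33.0, exact permutation of signs p = 0.25 for each, the smallest possible). All 3 had a peak at 95.6%, 84.7% and 44.5% of the classes and none had one at 0.580%, 1.63% and 16.2%. NFIA lists are long (22373 to 27143 peaks). An NFIA peak in all 3 libraries was found at 66.7% of NR-only loci with a full GRE and 84.8% of those without, and at 91.7% and 95.7% of common loci, a description with no test.

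GR peaks of other V1 cells and of fibroblasts were a minority in every class. In excitatory neurons (ExN) the shares were 15.0%, 0.690% and 7.46% of common loci, and 8.93%, 0.113% and 2.81% of NR-only loci. In inhibitory neurons (InN) they were 10.1%, 3.12% and 2.98% of common and 5.76%, 1.28% and 2.05% of NR-only loci. Each of these libraries was higher at common loci, but the mean difference changed sign without NR replicate 1 (-0.70 percentage points in InN and -0.49 in ExN, in place of 2.35 and 3.75). The difference lay mostly at promoters, where ExN replicate 1 had a peak at 41.02% of common and 15.8% of NR-only loci and InN replicate 1 at 26.9% and 9.70%. Away from promoters the shares were 1.83% and 1.84% in ExN replicate 1, 1.58% and 1.70% in InN replicate 1 and 0.582% and 0.668% in InN replicate 3, so common loci were not higher there in these libraries. They were higher there in InN replicate 2 (0.748% against 0.483%) and ExN replicate 3 (0.665% against 0.553%). ExN replicate 2 had 0 in both classes. Oligodendrocyte libraries reached 1.99% of common loci at most. In 3T3 fibroblasts given dexamethasone, a synthetic glucocorticoid, the libraries made from more nuclei had a peak at 5.80% and 5.61% of common, 1.78% and 1.51% of NR-only and 2.07% and 2.41% of GR-con-only loci.

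**Figure D4:**
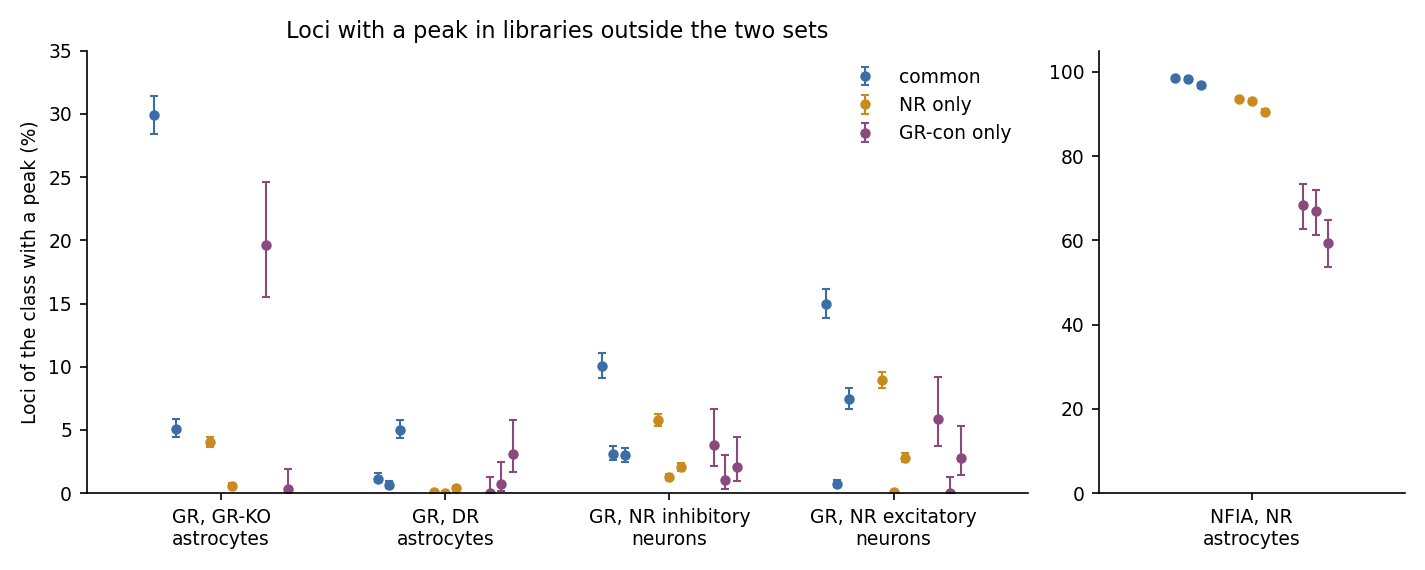
Percent of common, NR-only and GR-con-only loci with a peak in each library that took no part in defining them, 1 point per library. GR-KO replicate 1 stands at 29.9%, 4.04% and 19.7%, and the NFIA libraries at 96.8 to 98.4%, 90.5 to 93.6% and 59.3 to 68.3%.

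Genes were next taken from 11 lists, each gene counted once by its loci within 50 kb of its transcription start. Of all 21911 protein-coding genes, 19.8% had a common locus, 30.6% had NR-only but no common locus, and 1.50% had a GR-con-only locus. Astrocyte identity and maturation genes had a common locus at 36 of 43 (83.7%), NR-only loci alone at 4 (S100b, Nfib, Mlc1 and Slc7a10), and none of any class at 3 (Slc4a4, Ednrb and Chrdl1). Hepacam alone had a GR-con-only locus, beside common ones. Markers of other cells had one at 6.25 to 26.7% of a list, that is at 4 of 15 genes for excitatory neurons, 1 of 16 for inhibitory neurons, 4 of 16 for the oligodendrocyte lineage, 2 of 14 for microglia and 2 of 15 for endothelial and mural cells. These were Slc17a7, Rorb, Fezf2 and Tle4, then Pvalb, then Olig1, Olig2, Mog and Cnp, then Aif1 and Tyrobp, and last Pecam1 and Tagln. For Slc17a7, Pvalb, Olig2, Mog, Aif1, Tyrobp, Pecam1 and Tagln the best-ranked locus lay nearest to the start of another gene. NR-only loci alone were at Neurod2, Nrn1 and Emx1, then Gad1, then Mag, Mobp, Myrf and Opalin, then Csf1r and Spi1, and last Pdgfrb and Vtn. In the same order, 8, 14, 8, 10 and 11 genes had no locus of any class. These are peaks near genes, not expression.

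Among astrocyte genes the best-ranked common loci were at Aqp4, Id3, Slc1a2 and Htra1. An intron locus of the water channel gene Aqp4, active in astrocyte endfeet (chr18:15405130-15405415), had folds of 17.8, 12.3 and 30.2 in NR and 10.0 and 13.1 in GR-con. Beside Id3, an inhibitor of bHLH factors (chr4:136104423-136105301), they were 12.8, 10.99 and 30.7 in NR and 11.4 and 9.98 in GR-con. Near Slc1a2, the glutamate transporter GLT-1 (chr2:102649164-102649552), they were 13.6 and 22.2 in NR replicates 1 and 3 and 9.71 and 10.8 in GR-con, with no peak in NR replicate 2. At these 3 genes NR replicates 1 and 3 lay above NR replicate 2, where it had a peak, and GR-con replicate 1 lay below both of them. S100b, the calcium-binding protein, led the astrocyte genes with NR-only loci (9.61 and 12.4 in NR replicates 1 and 3, at a promoter of its neighbour Prmt2).

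Of 30 glucocorticoid target genes, 17 (56.7%) had a common locus, 10 had NR-only loci alone and 3 had none (Sgk1, Zbtb16 and Dusp1). Bcl6, a zinc finger repressor, led by rank, at a promoter (chr16:23988510-23988684) with folds of 17.8 and 23.5 in NR replicates 1 and 3 and 11.1 and 13.8 in GR-con. It was also the 1 gene of this list with a GR-con-only locus. Per1 followed, as given above. Mt1 and Mt2, the metallothioneins that bind zinc, shared a locus next to Mt3 (chr8:94154276-94155030), with 21.9, 7.97 and 25.8 in NR and 10.8 and 8.98 in GR-con. Hif3a, a hypoxia factor, had 18.1, 6.40 and 37.4 in NR and 8.34 and 14.7 in GR-con at a promoter (chr7:17058114-17058620). Tsc22d3, the GILZ gene, had 9.81 and 11.5 in NR replicates 1 and 3 and 9.81 and 15.7 in GR-con, in an intron (chrX:140572967-140573306). Fkbp5, the immunophilin of GR feedback, had an NR-only promoter locus (chr17:28486117-28486327), called in NR replicates 2 and 3 with folds of 7.25 and 4.50. Lcn2, the lipocalin gene, led the genes with NR-only loci (8.71 and 14.9 in NR replicates 1 and 3, 8.89 in GR-con replicate 1, at a promoter of its neighbour Ptges2).

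Of 21 genes of the receptor's own pathway, 9 (42.9%) had a common locus, 8 (38.1%) had NR-only loci alone and 4 had none (Ncoa2, Ncoa3, Nrip1 and Crebbp). The shares with a common locus and with NR-only loci alone were 19.8% and 30.6% of all protein-coding genes. They were 45.0% and 50.0% of the housekeeping list, so the pathway did not stand above that list. For hormone supply, Hsd11b1, whose enzyme regenerates active glucocorticoid, had a common promoter locus (chr1:193238511-193238694) with folds of 14.3 and 16.0 in NR replicates 1 and 3 and 11.1 and 7.99 in GR-con. Among receptors, both Nr3c1 and Nr3c2, the mineralocorticoid receptor gene, had NR-only loci. Among chaperones, Hsp90aa1 had a common locus (11.4 and 18.9 in NR replicates 1 and 3, 6.54 and 7.43 in GR-con), and Hsp90ab1, Dnajb1 and the immunophilins Fkbp4 and Fkbp5 had NR-only loci. At the promoter of the co-chaperone Stip1 (chr19:7039980-7040426) the fold was modest, 2.75, 8.64 and 5.62 in NR and 4.15 and 5.84 in GR-con, on 92, 171, 191, 139 and 185 fragments. Among cofactors, Smarca4, the BRG1 remodeller, had a common promoter locus with 8.21 and 32.5 in NR replicates 1 and 3 and 12.8 and 8.55 in GR-con, and Ep300, an acetyltransferase, an NR-only promoter locus with 17.2 and 14.9 in NR replicates 1 and 3.

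Clock genes had a common locus at 13 of 20, NR-only loci alone at 4 (Clock, Bhlhe40 and Bhlhe41 among them) and none at 3 (Cry1, Npas2 and Nfil3). Rora, a nuclear receptor that drives Bmal1, led with an intron locus (chr9:68679908-68680379) of 25.7, 8.98 and 21.6 in NR and 15.0 and 18.2 in GR-con. Nr1d1, the REV-ERBα repressor, had 20.99, 5.48 and 23.8 in NR and 8.34 and 10.3 in GR-con (chr11:98809539-98809848, a promoter of its neighbour Casc3). Bhlhe40, a repressor of clock genes, led the genes with NR-only loci (14.3 and 10.5). Immediate early genes were at 7 of 19 (36.8%) for common loci and 9 for NR-only loci alone, and housekeeping genes at 9 (45.0%) and 10 of 20. Without NR replicate 1 the common counts were 8 for clock genes and 4 for the receptor pathway, without NR replicate 3 they were 7 and 4, and without GR-con replicate 1 the pathway count was 14.

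**Figure D5:**
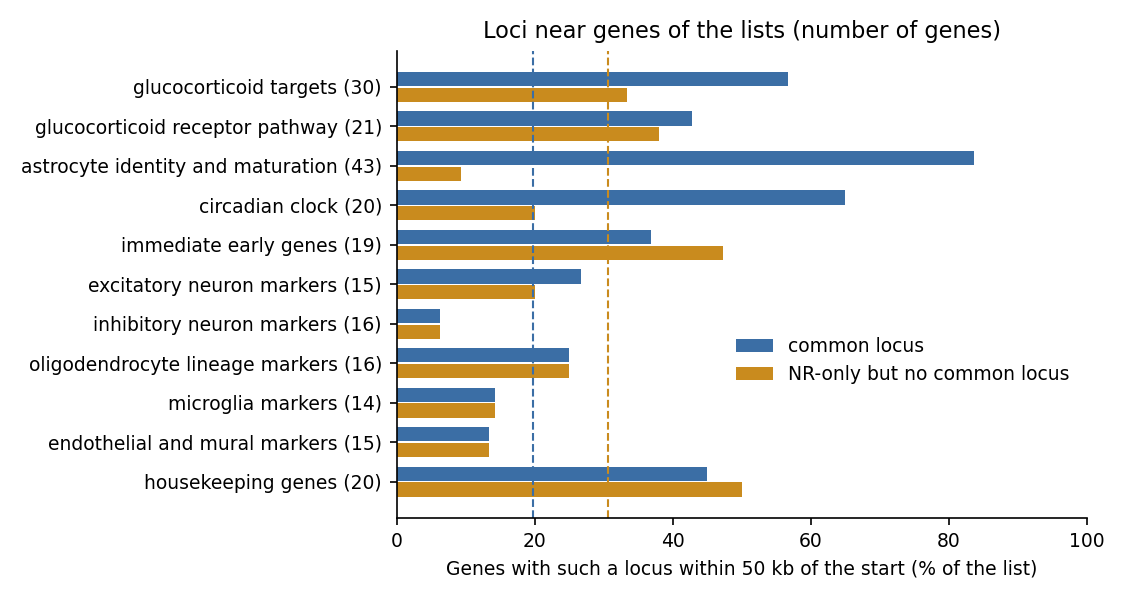
Percent of the genes of each list with a common locus, or with NR-only but no common locus, within 50 kb of the transcription start; dashed lines give all protein-coding genes (19.8% and 30.6%). Astrocyte genes reach 83.7%, clock genes 65.0% and glucocorticoid targets 56.7%, and inhibitory neuron markers 6.25%.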

How the data were processed

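GR CUT&RUN of P14 V1 astrocytes was analysed in 3 NR and 2 GR-con libraries, with 21 other peak lists of the series as comparison where stated; the other 24 samples (IgG, GFP-negative nuclei, vehicle 3T3, and NFIA in oligodendrocytes and neurons) were left out. The authors state that they used cutadapt, Bowtie2 (mm10), Picard, SAMtools and deepTools, kept short fragments, and called peaks per library with MACS2 against IgG. The sources used here do not give the IgG library behind each call. Each deposited peak has a fold enrichment (a ratio), a −log10 p-value and a −log10 q-value from the authors' caller, used as deposited; highest q in these lists was 0.00998.

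Fragments at summits and local background were solved from the deposited fold and −log10 p as whole numbers (recovered for 99.0 to 100% of peaks, tolerance 0.0005 on −log10 p, 0.00002 relative). Places followed GENCODE M21 (promoter, 500 bp; the GRCm38.p6 sequence is mm10), and a locus was named by the protein-coding gene with the nearest transcription start. Motifs were looked for on either strand within 50 bp of summits; printed sequences leave out chromosome 18. Named loci were the 10 best-ranked of each class (all 5 libraries for common; no library of the other set for the rest), and the best-ranked locus of listed genes; some genes these rules name are not reported here. Tests were exact permutations of 5 libraries, or of signs over outside libraries, at a threshold of 0.05; p-values measure the spread between these pooled libraries, part of which may be technical. Methods were tested on simulated data. The members, gene lists and rules were chosen with earlier results of these data known. Columns of other samples were 0. Tools were Python 3.11.15, numpy 2.4.6, scipy 1.17.1, pandas 2.3.3, pysam 0.24.0 and matplotlib 3.10.9. Alternatives tried were stricter q, other overlap and consensus rules, equal numbers of top peaks, other windows, each library left out and pairing by replicate number.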

Additional observations from a re-analysis of the deposited data

How the results depend on the processing

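Over 28 results, 269 alternative values were computed, of which 205 were kept, 50 moved and 14 changed sign. A difference was kept if its sign held, whatever its size. A count was kept within 1.5 times of the main value, and a share within the Wilson interval of the main value. No test passed 0.05 in any setting. The causes were not tested, except what follows by construction. Fewer peaks, or fewer libraries under the same 2-library rule, give fewer consensus sites. With a GR-con library left out, every peak of the remaining one counted as a site, so common and GR-con-only loci rose in number. Labels give the sets the same replicate numbers, which name no shared animal or batch: with the replicate block (pairs 1 and 2, without NR replicate 3) the log2 difference in peak number was -0.37 in place of 0.28. With q at most 0.0001, 25.5% of NR loci and 91.4% of GR-con loci were common and overlap within sets exceeded that between them by 0.28 percentage points. With a peak required in every library of a set, common, NR-only and GR-con-only loci numbered 1426, 399 and 2502 (78.1% of NR and 36.3% of GR-con loci common), and the receptor pathway, clock and other-cell lists had 4, 7 and 4 genes with a common locus. With the same number of top peaks per library, 540 loci were common and 1098 NR only (33.0% and 60.3%), the common minus NR-only difference was -0.81 percentage points in InN and -2.48 in ExN, and the glucocorticoid target, pathway, astrocyte, clock and other-cell lists had 8, 2, 17, 3 and 3. With loci of one set required to lack any peak of the other, NR-only and GR-con-only loci numbered 5143 and 73, and 41.3% of NR and 98.02% of GR-con loci were common. With a gene window of 10 kb the pathway and other-cell counts were 5 and 5.

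Leaving out each library in turn gave these ranges: the log2 difference in peak number -0.37 to 1.26, common loci 1428 to 5540, NR-only loci 405 to 8654, GR-con-only loci 355 to 2505, NR loci common 29.1 to 77.9%, GR-con loci common 36.3 to 90.9%, overlap within minus between sets -3.54 to 6.68, promoter difference -2.91 to 13.7, NFI half-site -2.90 to 0.0783 and GC box -2.10 to 8.84 percentage points, common minus NR only -0.70 to 2.86 in InN and -0.49 to 5.15 in ExN, DR common minus GR-con only -0.98 to 4.52, and genes with a common locus 4 to 14 for the pathway, 7 to 16 for the clock and 4 to 16 for other-cell markers. The number of peaks changed sign without NR replicate 1 (-0.06) or NR replicate 3 (-0.37).

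The use of summit windows (50 bp to either side) in place of whole loci, chosen after seeing the data because widths differ between classes (medians of 316, 207 and 143 bp), kept every outside-library difference in direction. A locus without a peak was only not called in that library, and total depth is unknown. NR replicate 2 had the lowest background of the NR and GR-con libraries. GR-KO replicate 2 had the lowest of the GR-KO, DR, NR and GR-con libraries. Whether depth set the number of peaks was not tested.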

Other observations

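Common loci were clustered near some genes, chosen here after their values were seen. Tob2, which encodes an antiproliferative protein, had 8 common loci within 50 kb of its start, and Fgfr3, the FGF receptor of astrocytes, and Klf9, a glucocorticoid-induced Krüppel-like factor, had 7 each. Aldh1l1, the folate enzyme used to mark astrocytes, Kcnj10, the Kir4.1 potassium channel, and Atp1b2, a sodium pump subunit, had 6 each. Such loci numbered 5 or more at 50 genes, out of 21911 protein-coding genes in all. Neighbouring genes share loci, so Tob2 and Phf5a count many of the same ones.

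Peaks of each library near canonical targets varied by gene. Sgk1, a kinase gene, had 0 peaks within 50 kb in all 5 libraries. Dusp1, a MAP kinase phosphatase gene, had 4 in NR replicate 3, 0 in the other 4 libraries and 1 in GR-KO replicate 1. Around Klf9 there were 9, 2 and 9 peaks in NR, 8 and 8 in GR-con and 0 in both GR-KO libraries, and around Per1 9, 2 and 13 in NR, 6 and 5 in GR-con and 0 in GR-KO. Tsc22d3 and the astrocyte gene Sox9 each had 1 peak in GR-KO replicate 1 and 0 in GR-KO replicate 2. The GR-KO lists were short, at 1846 and 413 peaks.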
